A study of Mus musculus with 6 samples.

Results

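The genes described are 8 that govern plasminogen activation and the start and control of coagulation, Plat, Plau, Plaur, Serpine2, F3, Tfpi, Thbd and Procr, taken by mouse NCBI gene number from the 21117 genes of a table of aortic RNA. Poly(A) RNA of mouse aortic tissue came from mice aged 32 weeks, all untreated: 3 samples were wild type (WT) and 3 had the genotype Fbn1C1041G/+. The allele is a missense change of fibrillin-1, heterozygous here and used to model Marfan syndrome. The design asked which transcripts differ between the 2 genotypes. All 8 genes were present in the table, and all 8 reached a mean of 1 FPKM across the samples, the filter that 13438 genes passed. FPKM are fragment numbers scaled to transcript length and library size, so levels can be compared between genes.

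Plasmin, the protease that dissolves fibrin and cleaves matrix proteins, is made from plasminogen by tissue-type plasminogen activator (Plat) or by urokinase (Plau), which acts on the cell surface bound to its receptor (Plaur). Serpine2, also called protease nexin-1, is a serpin that traps both activators and thrombin. Coagulation begins when tissue factor (F3), abundant around vessels, binds factor VII; Tfpi blocks that complex, while thrombomodulin (Thbd) and the endothelial protein C receptor (Procr) turn thrombin towards activation of the anticoagulant protein C. In the vessel wall Thbd, Procr and Tfpi are known mainly from endothelium, and tissue factor from the adventitia.

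Promoter sequences are shown for F3, the single gene of the 8 whose 3 mutant values all lay below WT, and for Plaur, one of the 3 whose mutant values all lay above it. Each is the 250 bases before the RefSeq start of the gene in build GRCm38.p6, 5′ to 3′ on the plus strand, F3 at chr3:121723287-121723536 and Plaur at chr7:24462233-24462482. The expression table was made on another build, and no coordinate was carried between the builds. Capitals mark matches on either strand to GGGCGG, the SP1 box, or to TGANTCA, the AP-1 motif.
F3: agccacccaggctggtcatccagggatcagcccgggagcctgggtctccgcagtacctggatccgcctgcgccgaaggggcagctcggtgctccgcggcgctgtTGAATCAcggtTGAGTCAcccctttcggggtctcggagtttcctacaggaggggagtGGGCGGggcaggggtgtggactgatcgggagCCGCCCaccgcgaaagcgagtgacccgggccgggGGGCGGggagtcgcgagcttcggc
Plaur: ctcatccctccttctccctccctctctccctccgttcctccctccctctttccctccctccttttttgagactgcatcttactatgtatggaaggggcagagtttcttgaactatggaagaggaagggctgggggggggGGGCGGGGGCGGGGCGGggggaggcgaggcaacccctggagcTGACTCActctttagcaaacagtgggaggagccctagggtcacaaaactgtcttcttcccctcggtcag
In F3 the AP-1 motif begins 146 and 135 bases before the start and the SP1 box 89, 58 and 24 bases before it. In Plaur 3 SP1 boxes, the last 2 of which share a base, begin 111, 105 and 100 bases before the start, and 1 AP-1 motif begins 69 bases before it. Of 32851 RefSeq promoter windows of the same length, 32.7% hold at least 1 SP1 box and 6.75% at least 1 AP-1 motif. The windows of F3 and Plaur are 70.0% and 59.6% G and C, where the median window is 52.4%. A TATA box (TATAAA, in 12.4% of all windows) and the letters GGGNNTTCC of an NF-kB motif (in 4.98%) were also searched and were not found in these 2 windows. Of the other members, Plat, Plau and Thbd have no promoter entry. The window of Procr, whose groups overlapped, also holds an AP-1 motif, 154 bases before the start. The windows of Serpine2 and Tfpi hold none. These matches are a description of the letters only.

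The libraries were estimated, in WT, at 13970000 to 16830000 fragments each and, in Fbn1C1041G/+, at 14460000 to 17030000 fragments, from the steps between low FPKM values. Of the markers of aortic smooth muscle, Acta2 ranged from 4956 to 5909 FPKM over the WT libraries and from 4674 to 6357 FPKM over the Fbn1C1041G/+ libraries, and Myh11 from 599.6 to 803 and from 594 to 947 FPKM. WT replicate 3 stood apart: GC-rich genes were lower in it (correlation of its deviation with GC content across genes -0.31, against 0.19 and 0.24 in the other WT libraries), and its adipocyte markers summed to 3441 FPKM against 982 and 1421 FPKM. Markers of other tissues also differed between the genotypes. Those of sympathetic neurons and chromaffin cells, led by Th, summed to 1494 to 1789 FPKM in WT samples and 172 to 314 FPKM in mutant samples, with 10 of 12 called lower. Cardiomyocyte markers, led by Myh6, summed to 46.4 to 69.2 and 146 to 552 FPKM, with 4 of 8 called higher, and macrophage markers, led by Cd68, to 194 to 284 and 338 to 812 FPKM, with 3 of 8 called higher. In bulk tissue fewer cells of a type and less RNA per cell cannot be told apart.

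None of the 8 genes differed between the genotypes past the threshold of an adjusted p of 0.05 (limma on log2(FPKM + 1), Benjamini-Hochberg over all 13438 genes), whereas 5.6% of all tested genes did, 0.744% higher and 4.85% lower. At an unadjusted p under 0.05, 3 of the 8 were higher in Fbn1C1041G/+ samples, namely Plat, Plau and Plaur, and none was lower; among all tested genes 4.86% were higher and 10.3% lower by that measure. The values of those same 3 genes lay wholly above WT and those of F3 wholly below, which held for 6.85% and 13.1% of tested genes. In the other 4 genes the groups overlapped. The median log2 fold change, Fbn1C1041G/+ minus WT, was 0.29 over the 8 genes and -0.0036 over all genes tested.

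**Figure D1:**
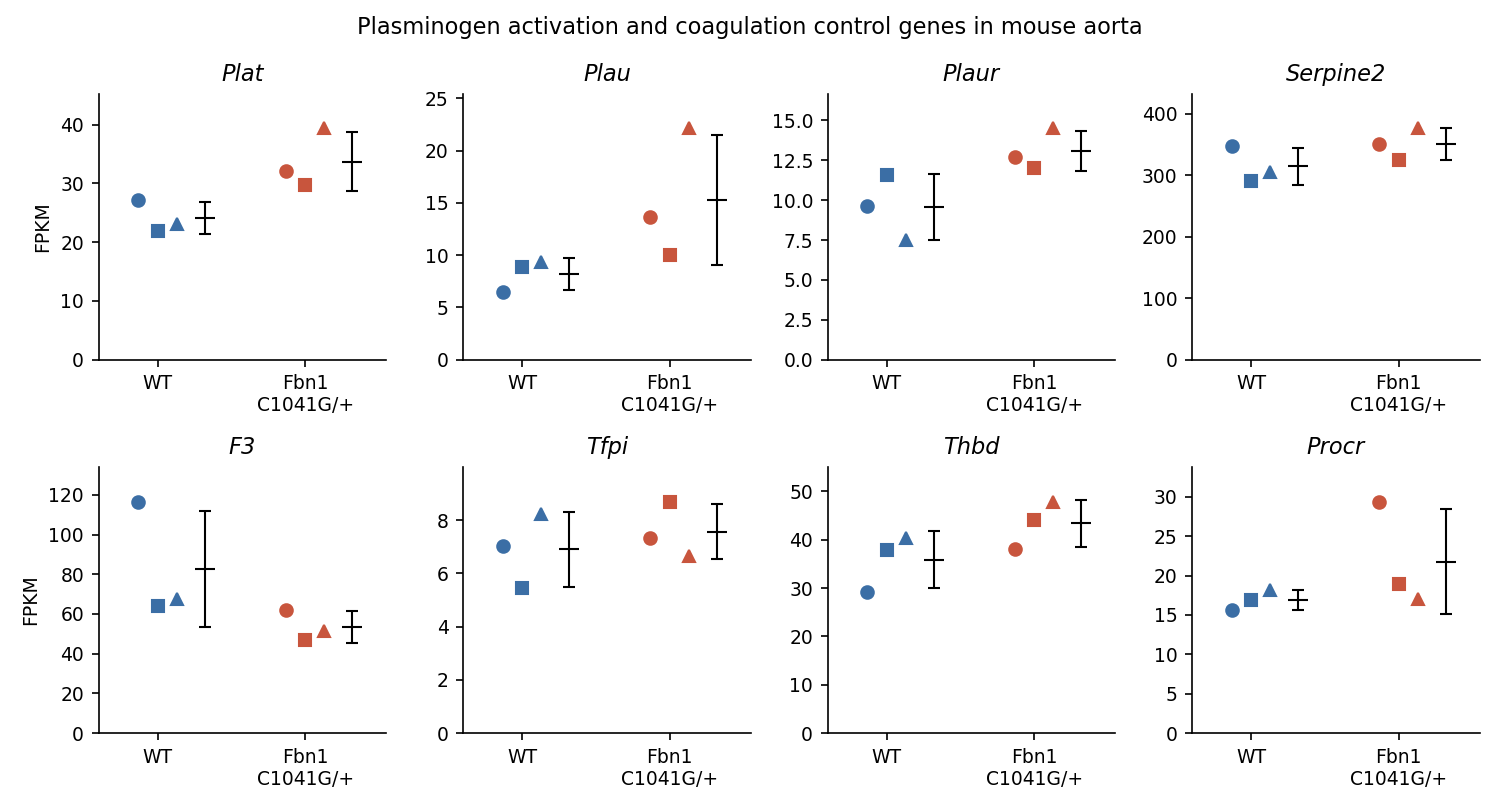
FPKM of the 8 genes in each library of WT (blue) and Fbn1C1041G/+ (red) aorta, on linear axes from 0; circles, squares and triangles are replicates 1, 2 and 3, and black bars give the mean and SD of 3 libraries. The groups are apart in Plat, Plau, Plaur and F3 and overlap in Serpine2, Tfpi, Thbd and Procr.

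The levels spanned a wide range and kept a similar order in both genotypes. In WT the order was Serpine2 at a mean of 314 FPKM, F3 at 82.8, Thbd at 35.9, Plat at 24.1, Procr at 16.9, Plaur at 9.57, Plau at 8.23 and Tfpi at 6.90 FPKM. Of these neighbours, the 3 libraries overlapped between Plaur and Plau and between Plau and Tfpi, and the others were apart. In Fbn1C1041G/+ samples Plau, at 15.3 FPKM, stood before Plaur, at 13.1 FPKM, with overlapping libraries. There F3 at 53.4 FPKM also overlapped with Thbd at 43.4 FPKM, Thbd with Plat at 33.7 FPKM, and Procr at 21.8 FPKM with Plau. Plat and Procr were just apart, with a lowest Plat value of 29.72 FPKM and a highest Procr value of 29.38 FPKM. The inhibitor Serpine2 was thus the most abundant of the 8 in every library, at 290 to 376 FPKM.

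Both activators had higher values in the mutant aortas. Plat (NCBI gene 18791) stood at 27.2, 22.0 and 23.1 FPKM in WT replicates 1 to 3 and at 32.1, 29.7 and 39.4 FPKM in Fbn1C1041G/+ replicates 1 to 3. The lowest mutant library lay above the highest WT library, and mutant replicate 3 was the highest of all. The means were 24.1 ± 2.75 and 33.7 ± 5.06 FPKM (SD, n = 3 each), a ratio of 1.40. Its log2 fold change was 0.46 ± 0.16 (SE), with a 95% interval of 0.08 to 0.84 and a limma adjusted p of 0.208. Plat is also known from sympathetic neurons and chromaffin cells, and the summed markers of those cells, given above, were lower in the mutant libraries; their part in the values of Plat was not tested.

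Plau (NCBI gene 18792) stood at 6.48, 8.91 and 9.31 FPKM in the WT samples, against 13.7, 10.1 and 22.2 FPKM in mutant replicates 1 to 3. The mutant libraries differed among themselves more than the WT libraries did, and replicate 2 lay just above the highest WT value. The means were 8.23 ± 1.53 and 15.3 ± 6.21 FPKM (SD, n = 3 each), a ratio of 1.86, the largest of the 8. On the log2 scale the difference was 0.76 ± 0.28 (SE), with a 95% interval of 0.10 to 1.43 and a limma adjusted p of 0.240. Without Fbn1C1041G/+ replicate 3 it was 0.48 (adjusted p 0.551).

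The urokinase receptor gene Plaur (NCBI gene 18793) was nearly even across the mutant libraries, at 12.71, 12.04 and 14.51 FPKM, and stood at 9.63, 11.6 and 7.48 FPKM in WT. WT replicate 2 lay only just below the lowest mutant value, and WT replicate 3 was the lowest. The means were 9.57 ± 2.06 and 13.1 ± 1.28 FPKM (SD, n = 3 each). The difference on the log2 scale was 0.43 ± 0.18 (SE), with a 95% interval of 0.0093 to 0.85 and a limma adjusted p of 0.313. Without WT replicate 3, the library with lower values of GC-rich genes, it was 0.28 (adjusted p 0.429). The Plaur transcript has a GC content of 54.2%, the highest of the 8. After correction for GC content the log2 fold change was 0.48 (limma adjusted p 0.233). The correction also moved the median log2 fold change over all genes, from -0.0036 to 0.032.

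Leukocytes are a known source of urokinase and its receptor, and their markers were higher in the same mutant libraries. The macrophage markers summed to 812, 338 and 550 FPKM in mutant replicates 1 to 3. The T and NK cell markers, led by Cd3e, summed to 20.4, 7.56 and 34.0 FPKM there and to 2.61 to 5.70 FPKM in WT, with none of 6 called. Plau had the same order over the mutant libraries as the T and NK cell sum, with replicate 3 highest and replicate 2 lowest. The macrophage sum was highest in replicate 1. The cardiomyocyte sum also had the order of Plau, at 246, 146 and 552 FPKM in mutant replicates 1 to 3. The B and plasma cell sum did not, at 57.8, 130 and 203 FPKM. The neutrophil markers, led by S100a8, summed to 17.7, 154 and 14.8 FPKM in mutant samples and 6.25 to 12.97 FPKM in WT. S100a8 was listed at 0 in 1 WT library, and none of the 5 tested was called. S100a8 at 65.0 and S100a9 at 67.2 FPKM made most of the sum in mutant replicate 2. Of the tested genes Cxcr2 alone had a log2 fold change below 0, at -0.15. The part of these cells in the values of Plau and Plaur was not tested.

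Serpine2 (NCBI gene 20720) varied little within either genotype, with SDs of 9.45% of the mean in WT and 7.44% in mutant samples. Its values were 347, 290 and 305 FPKM in WT and 351, 324 and 376 FPKM in Fbn1C1041G/+ replicates 1 to 3. WT replicate 1 lay above mutant replicate 2, so the groups overlapped. Its log2 fold change was 0.16 ± 0.15 (SE), with a 95% interval of -0.18 to 0.50 and a limma adjusted p of 0.761. That interval holds no change as well as a rise of up to 0.50 on the log2 scale.

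Tissue factor, F3 (NCBI gene 14066), ran the other way. It stood at 117, 64.1 and 67.8 FPKM in the WT samples, against 62.1, 46.7 and 51.5 FPKM in mutant replicates 1 to 3. WT replicate 1 was far above the other 5 libraries, and WT replicate 2 lay just above mutant replicate 1. The means were 82.8 ± 29.3 and 53.4 ± 7.89 FPKM (SD, n = 3 each), a ratio of 0.645. The log2 fold change was -0.58 ± 0.25 (SE), with a 95% interval of -1.17 to 0.01 and a limma adjusted p of 0.344. Without WT replicate 1 it was -0.31 (adjusted p 0.652). Heart muscle is a known source of tissue factor, and the summed cardiomyocyte markers were higher in the mutant libraries; their part in F3 was not tested. The Schwann cell markers, led by S100b, summed to 337, 238 and 235 FPKM in WT replicates 1 to 3 and to 144 to 214 FPKM in mutant libraries, with 3 of 8 called lower. That sum was highest in the library with the highest F3; the part of those cells in F3 was not tested.

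Tfpi (NCBI gene 21788), the inhibitor of the tissue factor complex, was the least abundant of the 8. It stood at 7.02, 5.45 and 8.23 FPKM in the WT samples, against 7.31, 8.69 and 6.67 FPKM in mutant libraries, with the groups mixed. Mutant minus WT gave a log2 fold change of 0.12 ± 0.18 (SE), with a 95% interval of -0.30 to 0.54 and a limma adjusted p of 0.870, and its sign turned without WT replicate 2 (-0.015). The gene has 3 transcripts in the table, and their values were not separated.

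The 2 receptors that direct thrombin to protein C had overlapping groups. Thbd (NCBI gene 21824) stood at 29.2, 37.9 and 40.4 FPKM in the WT samples, against 38.1, 44.2 and 47.9 FPKM in mutant libraries. WT replicate 1 was the lowest library, and mutant replicate 1 lay among the WT values. For Thbd the log2 fold change was 0.27 ± 0.17 (SE), with a 95% interval of -0.13 to 0.68 and a limma adjusted p of 0.598. Without WT replicate 1 it was 0.14 (adjusted p 0.891). Procr (NCBI gene 19124) was even in WT, at 15.6, 16.9 and 18.2 FPKM. In the mutant libraries it stood at 29.4, 18.9 and 17.0 FPKM, with replicate 1 alone far above WT. For Procr the log2 fold change was 0.31 ± 0.21 (SE), with a 95% interval of -0.19 to 0.81 and a limma adjusted p of 0.652. With Fbn1C1041G/+ replicate 1 left out it was 0.082 (adjusted p 0.823). The endothelial markers, led by Pecam1, summed to 431 to 595 FPKM over the WT libraries, against 448 to 544 FPKM in the mutant ones, and none of 10 was called. The mesothelial markers, led by Msln, summed to 2.10 to 8.54 and 8.56 to 25.8 FPKM, with none of the 4 tested called.

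**Figure D2:**
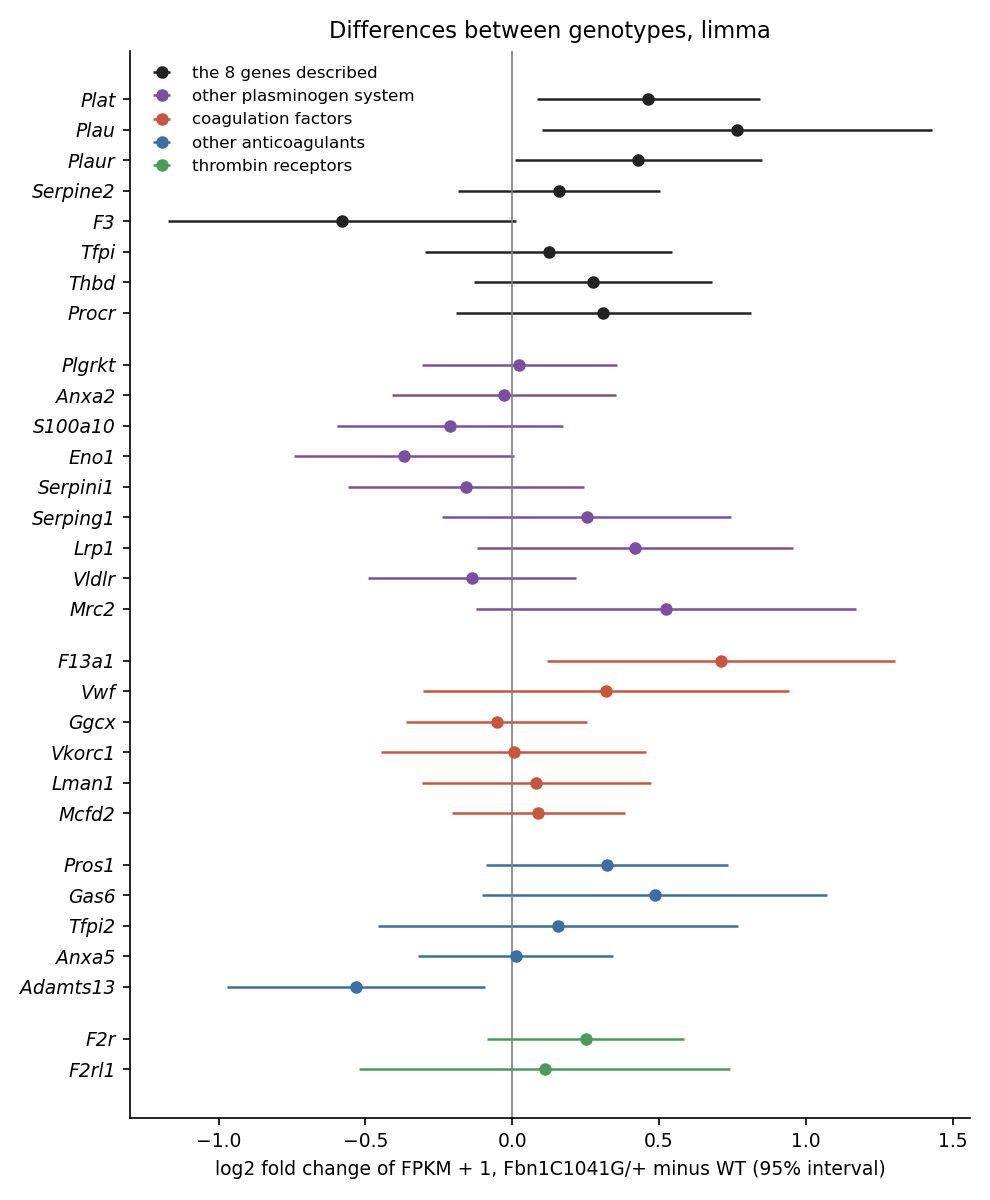
Log2 fold changes of FPKM + 1, Fbn1C1041G/+ minus WT, with 95% intervals from limma, for the 8 genes (black) and 22 tested genes of 4 lists of the same pathways (colours). The intervals of Plat, Plau and Plaur lie above 0 before adjustment over genes, that of F3 reaches 0.01, and no gene shown passed the adjusted threshold.

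Ratios of paired genes within a library were less dependent on the scaling of that library, which cancels except for the pseudocount. In the log2 ratio of Plat to Serpine2, each as FPKM + 1, the WT libraries stood at -3.63, -3.66 and -3.67 and the mutant libraries at -3.41, -3.40 and -3.22. The WT libraries lay close together and every mutant library lay above them. The difference of 0.30 had a 2-sided p of 0.1 in an exact permutation test, the smallest that 3 against 3 samples can give. The log2 ratio of Thbd to F3 was -1.96, -0.74 and -0.73 in WT and -0.69, -0.077 and -0.10 in mutant libraries, with the groups again apart. Its difference of 0.85 also had an exact permutation p of 0.1, and without WT replicate 1 the difference was 0.45. The log2 ratio of Plau to Serpine2 was -5.54, -4.88 and -4.89 in WT and -4.59, -4.88 and -4.03 in mutant libraries, and that of F3 to Tfpi was 3.87, 3.34 and 2.90 against 2.92, 2.30 and 2.78. Both pairs had overlapping groups, with differences of 0.61 and -0.70 and an exact permutation p of 0.2 each. The overlap of Plau to Serpine2 was between replicates 2 of the 2 genotypes and was present only with the pseudocount of 1: at pseudocounts of 0.1 and 0.01 its groups were apart, with a difference of 0.67 at each and an exact permutation p of 0.1. Without Fbn1C1041G/+ replicate 3 that difference was 0.37, and without WT replicate 1 that of F3 to Tfpi was -0.45. After Benjamini-Hochberg adjustment over the 4 ratios, at the pseudocount of 1, every exact permutation p was 0.2.

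**Figure D3:**
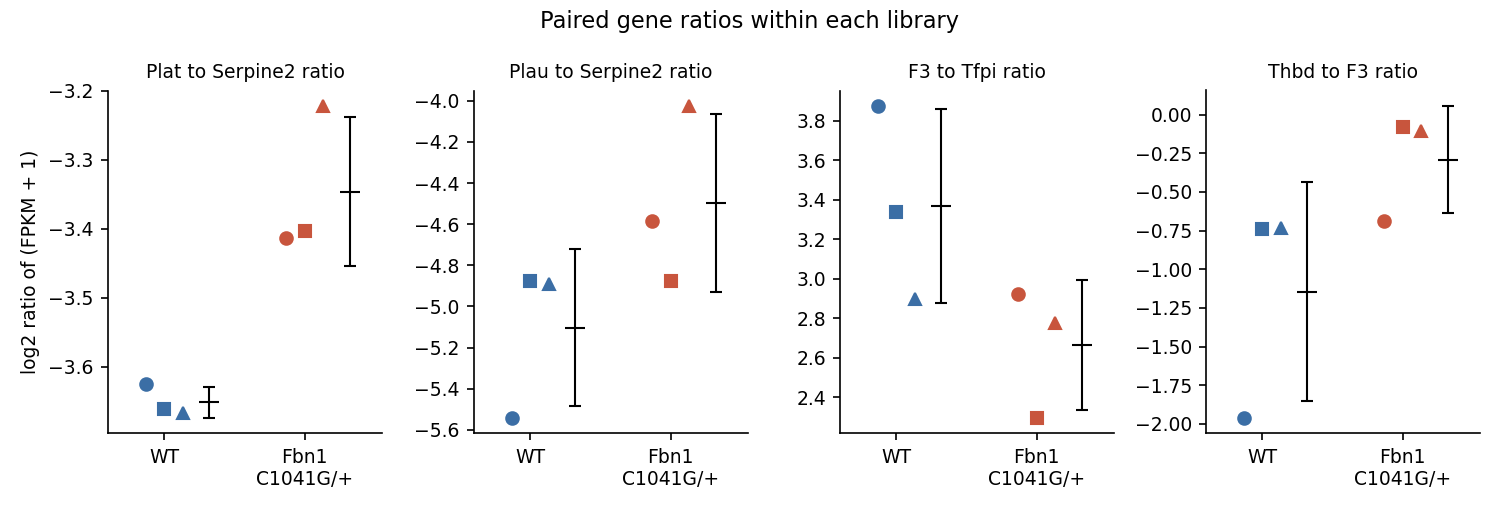
Log2 ratios of FPKM + 1 within each library for 4 gene pairs, WT in blue and Fbn1C1041G/+ in red; circles, squares and triangles are replicates 1, 2 and 3, black bars give the mean and SD, and each panel has its own axis, which does not start at 0. At this pseudocount the groups are apart for Plat to Serpine2 and Thbd to F3 and overlap for the other pairs; those of Plau to Serpine2 are apart at smaller pseudocounts.

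The genes whose values most resembled Plat, Plau and Plaur, the 3 with the smallest unadjusted p, were found by the root mean square difference of centred log2(FPKM + 1) over the 6 libraries. For Plat these were Tmsb4x (thymosin beta 4, an actin-binding peptide) at 0.048, Ccnd2 (cyclin D2) at 0.070 and Slc16a6 at 0.072. Tmsb4x stood at 2307, 1921 and 1810 FPKM in WT, against 2636, 2435 and 3186 FPKM in mutant libraries. It shared the order of Plat over the mutant libraries, a likeness for which it was picked. For Plau they were Psd4 at 0.091, Gpr132 at 0.10 and Cxcr3, a chemokine receptor of T cells, at 0.10. These 3 had low levels, with Cxcr3 ranging over 0.49 to 0.88 FPKM in WT samples and 0.80 to 3.68 FPKM in mutant ones, and the pseudocount of 1 narrows their range. For Plaur they were Mapkapk2, a stress kinase, at 0.045, Map3k14, a kinase of NF-kB signalling, at 0.067 and Plekho2 at 0.069. None of the 9 was called (limma adjusted p 0.147 to 0.588).

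The rest of the 2 pathways gave no call either. Of 50 further genes in 4 lists, 23 passed the filter and none was called higher or lower (limma). At an unadjusted p under 0.05, 2 of the 23 were higher and 1 was lower. Among all tested genes 4.86% were higher and 10.3% lower by that measure. The median log2 fold change of the 23 genes was 0.089, beside -0.0036 over all genes tested. The 27 genes left out include factors made in the liver: plasminogen, Plg, was listed at 0 in 5 libraries and at 0.08 FPKM in WT replicate 3, and prothrombin, F2, at 0 to 0.09 FPKM. These 2 genes were named after their values were seen. 

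In the plasminogen system 10 of 15 genes were tested. Serping1, an inhibitor of complement and contact proteases, averaged 475 ± 112 FPKM for WT, against 560 ± 82.6 FPKM for the mutant libraries (SD, n = 3 each), for a log2 fold change of 0.25 (0.14 to 0.44 with a library left out). The plasminogen-binding surface proteins Anxa2 and Eno1 had log2 fold changes of -0.028 and -0.37. Anxa2 changed sign with median-ratio scaling. The Eno1 groups did not overlap, with 487 to 527 FPKM for WT against 342 to 460 FPKM for mutant libraries, but its reads can be shared with a near-identical copy, so its level is uncertain.

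Of 20 coagulation factor genes 6 were tested. F13a1, the transglutaminase subunit of factor XIII that crosslinks fibrin, stood at 12.25, 12 and 21.59 FPKM in the WT samples, against 27.2, 20.1 and 27.7 FPKM in mutant libraries. WT replicate 3 lay above mutant replicate 2, the one overlap between the groups. Its log2 fold change of 0.71 ± 0.25 (SE) had a limma adjusted p of 0.216, and leaving out WT replicate 3 gave 0.97 (adjusted p 0.0239), which passed. Macrophages are a known source of F13a1, and their markers were higher in the mutant libraries; their part was not tested. Vwf, the endothelial adhesive protein, had a log2 fold change of 0.32 (0.076 if WT replicate 2 is left out, 0.54 if WT replicate 3 is, and 0.15 if mutant replicate 2 is), Mcfd2, a cargo receptor for factors V and VIII, 0.089, and Vkorc1, the vitamin K reductase, 0.0056, a sign that turned with sample weights.

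Of 11 other anticoagulant genes 5 were tested. Adamts13, the protease that trims von Willebrand factor, stood at 4.20, 4.93 and 4.98 FPKM in the WT samples, against 3.87, 2.92 and 2.19 FPKM in mutant libraries. The groups were apart, mutant lower, by -0.53 ± 0.19 (SE) on the log2 scale, with a limma adjusted p of 0.212. Pros1, protein S, the cofactor of activated protein C, stood at 17.2 to 25.9 and 26.0 to 28.8 FPKM, apart by a narrow margin, with a log2 fold change of 0.32 (0.16 without WT replicate 2). Gas6, a relative of protein S and a ligand of TAM receptors, had 0.49 (0.32 to 0.68 with a library left out). Its transcript has a GC content of 56.6%, and WT replicate 3 was its lowest library, at 116 FPKM. After correction for GC content its log2 fold change was 0.55, where the median over all genes was 0.032. Anxa5, which covers phosphatidylserine, had 0.012, a sign that turned with sample weights. Of the 4 thrombin-receptor family genes 2 were tested. F2r, the main thrombin receptor of smooth muscle, stood at 20.7 to 24.2 FPKM over the WT libraries, against 24.2 to 30.1 FPKM in the mutant ones, with the lowest mutant value (24.24) just above the highest WT value (24.17) and a log2 fold change of 0.25. F2rl1, which responds to trypsin-like proteases, had 0.11, with overlapping groups.

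**Figure D4:**
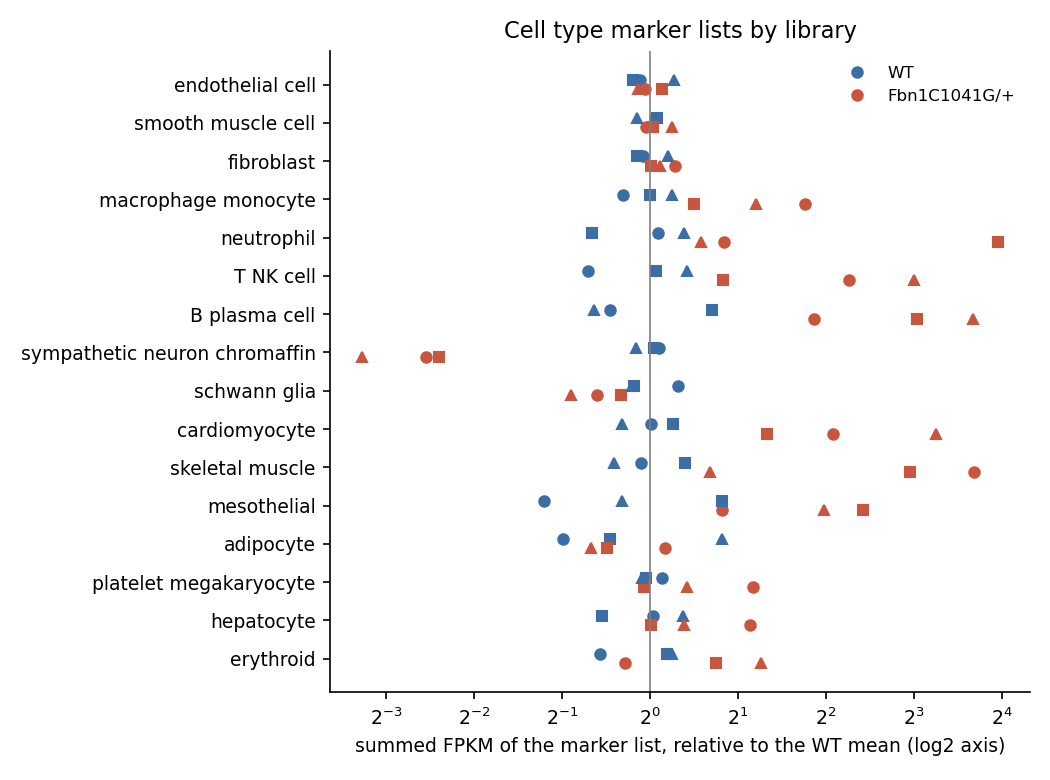
Summed FPKM of 16 cell type marker lists in each library, relative to the WT mean on a log2 axis; WT in blue, Fbn1C1041G/+ in red, with circles, squares and triangles for replicates 1, 2 and 3. Endothelial, smooth muscle and fibroblast sums overlap between genotypes, sympathetic neuron and chromaffin sums are lower in every mutant library, and macrophage, lymphocyte and cardiomyocyte sums are higher.

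The summed markers of the resident wall cells overlapped between the genotypes. The smooth muscle markers, led by Acta2, summed to 9238 to 10784 FPKM over the WT libraries, against 9920 to 12140 FPKM in the mutant ones, and the fibroblast markers, led by Pdgfra, to 1330 to 1700 and 1486 to 1790 FPKM, with none of 8 called in either list. The fibroblast markers had a median log2 fold change of 0.33, with all 8 above 0, and the values of Dpt, named after they were seen, lay wholly above WT (108 to 138 against 95.5 to 106 FPKM); the part of fibroblasts in the 8 genes described was not tested. The platelet list, led by Pf4, summed to 26.8 to 31.4 and 27.3 to 64.5 FPKM, of which Pf4 alone made 18.1 to 22.8 and 21.4 to 57.4 FPKM. The hepatocyte list, led by Alb, summed to 3.98 to 7.50 and 5.83 to 12.7 FPKM. Ahsg, its only tested gene, made 2.12 to 4.81 and 4.74 to 10.5 FPKM of that. Alb itself went the other way, at 0.55 to 1.32 and 0.26 to 0.33 FPKM, below the filter. The erythroid list, led by Hba-a1, summed to 245 to 433 and 298 to 873 FPKM. None of the tested genes of these 3 lists was called. Of the B and plasma cell list, led by Cd79a, which summed to 10.2 to 25.9 and 57.8 to 203 FPKM, 1 of 6 was called higher. The skeletal muscle list, led by Acta1, summed to 6.96 to 12.1 and 14.9 to 118 FPKM, with 1 of the 4 tested called higher. The adipocyte list, led by Adipoq, summed to 982 to 3441 and 1223 to 2189 FPKM, with none of 6 called.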

How the data were processed

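Aortic poly(A) RNA of 6 samples was measured. The values are FPKM as deposited by the authors, per the file headers, with 2 decimals. Build mm9 appears among the submitters' processing notes; which aligner and quantifier made them is not given in the sources used here. Of 21117 genes, 21059 took a symbol from the RefSeq table of GRCm38.p6. The columns were mapped by name, with 0 unmapped.

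Values were taken to log2(FPKM + 1), which understates the change of low genes. Genes averaging at least 1 FPKM were tested in limma 3.58.1 under R 4.3.3 (lmFit, eBayes with a trend, 2-sided, Benjamini-Hochberg, threshold 0.05). FPKM keep no read numbers, so no count model was fitted; the steps between low values of genes with 1 transcript gave the depth (80.0% to 84.0% of values within 0.2 of a whole fragment at the best step), and no counting intervals were computed. By that depth Plaur, the lowest of the members with 1 transcript, rested on about 157 to 351 fragments a library; Tfpi, with 3, has no estimate. The procedure was tested on simulated data. The members and lists, and the rule for named genes, were chosen with earlier results of these data known. That rule names all 8 genes, any called gene of each pathway list with the 3 highest and the 2 of smallest p among those not called, the 3 genes nearest in profile to each of 3 members, and the first gene of each marker list; 1 gene it names is not reported here, in text or plots, though list counts and medians include it. Labels do not say that the samples are separate animals, so each p-value reflects only how far these samples differ, which may be technical. At most 1.83% of non-zero values were identical between any pair of libraries. Alternatives were other pseudocounts, filters, scalings and moderation, weights per sample, a block for the replicate number and each library left out; a GC correction was added after the data were seen.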

Additional observations from a re-analysis of the deposited data

How the results depend on the processing

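None of the 8 genes was called under any of the 17 alternatives to the fit, and 7 of the 8 kept their direction in all; Tfpi turned without 1 library (range over libraries left out -0.015 to 0.24). Left-out libraries gave ranges of 0.35 to 0.55 for Plat, 0.48 to 1.01 for Plau, 0.28 to 0.57 for Plaur, -0.73 to -0.31 for F3, 0.10 to 0.23 for Serpine2, 0.14 to 0.37 for Thbd and 0.082 to 0.46 for Procr on the log2 scale. All 4 ratios kept their direction. Over all genes 652 were called lower and 100 higher; the counts were 349 and 33 when genes had to average 5 FPKM, 1011 and 285 with sample weights, and 389 to 751 and 37 to 192 with a library left out. Of the coagulation factors 1 (F13a1, 0.89, adjusted p 0.0239) was called higher with sample weights, and 0 to 1 with a library left out. Among values near 0, Anxa2 turned with median-ratio scaling (0.016), with GC correction (0.012) and over left-out libraries (-0.12 to 0.073), Vkorc1 with sample weights (-0.065; -0.19 to 0.14), Anxa5 with sample weights (-0.064; -0.042 to 0.0995) and F2rl1 over left-out libraries (-0.14 to 0.29); the cause was not tested. With the replicate number as a block 586 genes were called lower and 112 higher, and no member was called. Deviations of same-numbered samples correlated at 0.26, -0.024 and 0.097. The first, between replicates 1 of each genotype, was the highest of all pairs, but not every sample correlated best with its own number. So few samples cannot decide whether a shared number marks a pairing or a batch, and this was not tested. With 3 samples a group, differences of the size seen in the 8 genes were not separable from the spread at the adjusted threshold.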

Other observations

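Receptors that clear protease and inhibitor complexes, picked from the lists after their values were seen, were not called. Lrp1, which takes up activator and serpin complexes, stood at 56.8, 43.6 and 31.5 FPKM in the WT samples, against 66.5, 54.0 and 52.9 FPKM in Fbn1C1041G/+ libraries, with overlapping groups; the log2 fold change of 0.42 had a limma adjusted p of 0.505. Mrc2, a collagen receptor that binds the urokinase receptor complex, stood at 12.6, 8.13 and 5.47 FPKM in the WT samples, against 11.54, 10.99 and 14.84 FPKM in mutant libraries, giving a log2 fold change of 0.52 whose limma adjusted p was 0.476. Vldlr, another receptor of this kind, had a log2 fold change of -0.14. For both Lrp1 and Mrc2, WT replicate 3 was the lowest library and WT replicate 1 lay among the mutant values. Their transcripts have GC contents of 57.9% and 58.7%, and GC-rich genes were lower in WT replicate 3. The log2 fold changes of Lrp1 and Mrc2 after the correction for GC content are not given here. The part of GC content in these differences was not tested.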
